A study of Homo sapiens with 3 samples.

Results

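Olfactory receptor genes lie in tandem clusters, and 6 of these clusters, on chromosomes 1, 9, 11 and 14, were examined for peaks of the chromatin protein HMGA1 in DAMI cells, a human leukaemic line labelled MPN/AML. A cluster was defined by its position on hg19, though the choice of these 6 was made with earlier results of these data known. They were chromosome 11 from 55000000 to 56600000 (called proximal chromosome 11 here) and from 123600000 to 124450000 (distal chromosome 11), chromosome 1 from 247600000 to 248850000 (terminal chromosome 1) and from 158300000 to 158800000 (interior chromosome 1), chromosome 14 from 20150000 to 20750000, and chromosome 9 from 107250000 to 107500000. Together they span 5.05 Mb. A peak belonged to a cluster where its summit fell inside the interval. This held for 1112 of the 385953 peaks called with input DNA as control (the input list) and for 781 of the 263033 peaks called with histone H3 ChIP as control (the H3 list). Each cluster was compared with 1 Mb on either side, which held 1088 and 691 peaks.

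The series has 3 libraries from DAMI cells, with no treatment named in the labels, 1 each of HMGA1 ChIP, H3 ChIP and input DNA without antibody. All come from 1 cell line and there are no replicates, so no p-value is given, and every interval covers counting error only. Both lists use the same HMGA1 reads, so a site found in both was not measured again. DAMI cell identity was not checked, since ChIP peaks give no transcript levels.

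HMGA1 is a small architectural protein whose AT-hooks bind the minor groove of AT-rich DNA. Olfactory receptors are G protein-coupled receptors of the nasal epithelium, where each sensory neuron expresses a single receptor allele. Outside that tissue the clusters are mostly silent and are known as AT-rich, late-replicating chromatin, with many pseudogenes and near-identical copies. Reads from such copies can be hard to place, and how the submitters treated reads with several matches is not given in the sources used here.

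To describe the receptor genes and the bases just upstream of them, RefSeq gene order was used to find the matching runs. These were runs of receptor genes on GRCh38.p14 with at most 10 other genes between neighbouring receptors. Each run was matched to its cluster through 1 receptor gene of known location (OR5I1, OR8D1, OR2T1, OR10T2, OR4K1 and OR13F1). Positions were not carried over to hg19, so a run may not end where its hg19 interval does, and the runs were not joined to peaks. The 6 runs held 280 receptor genes, of which 150 were coding and 130 were pseudogenes, and 7 other coding genes lay between them. The proximal chromosome 11 run was the largest, from OR4C50P to OR5BP1P, with 48 coding receptors and 69 pseudogenes. The terminal chromosome 1 run, from OR2B11 to OR14I1, had 43 coding receptors and 13 pseudogenes. Those of distal chromosome 11 (OR6X1 to OR8Q1P), chromosome 14 (OR11H2 to OR11H4), interior chromosome 1 (OR10T2 to OR10AA1P) and chromosome 9 (OR13F1 to OR13D3P) had 22, 16, 13 and 8 coding receptors.

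The 250 bases upstream of the gene start were richer in A and T in the receptor genes than in promoters at large. The flanks and the rest of the cluster DNA were not read, so the clusters were not compared with their surroundings in AT content. Their median AT content was 64% over the 125 coding receptors with an entry in the promoter table (quartiles 59.6% and 68.4%), against 42% over all 35116 promoters of the table (quartiles 32% and 53.6%). Only 7.21% of all promoters reached the receptor median. By run, the median AT content was 68.8% on proximal chromosome 11, 66.2% on chromosome 9, 64.8% on chromosome 14, 62.8% on terminal chromosome 1, 59.6% on distal chromosome 11 and 58.4% on interior chromosome 1. The longest unbroken stretch of A and T had a median of 11 bases in the receptors and 6 in all promoters.

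One upstream sequence is shown for each of the 3 clusters with most HMGA1 peaks per Mb, namely that of the receptor closest to its run's median AT content. Capitals mark the longest unbroken stretch of A and T (the first of these where several are equally long, as in OR14L1), and coordinates and strand are those of the RefSeq table on GRCh38.p14.
OR11H4, chromosome 14, chr14:20239036-20239285, plus strand, 64.8% AT: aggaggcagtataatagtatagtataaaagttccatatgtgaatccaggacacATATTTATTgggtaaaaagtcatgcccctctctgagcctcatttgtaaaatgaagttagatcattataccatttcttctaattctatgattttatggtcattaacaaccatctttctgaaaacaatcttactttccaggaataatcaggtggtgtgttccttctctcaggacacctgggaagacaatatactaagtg
OR14L1, terminal chromosome 1, chr1:247616893-247617142, plus strand, 62.8% AT: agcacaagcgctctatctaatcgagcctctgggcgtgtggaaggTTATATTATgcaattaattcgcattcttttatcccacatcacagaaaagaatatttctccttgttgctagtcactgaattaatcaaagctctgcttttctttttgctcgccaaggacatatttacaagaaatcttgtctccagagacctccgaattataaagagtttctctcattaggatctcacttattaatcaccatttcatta
OR8B8, distal chromosome 11, chr11:124445697-124445946, minus strand, 59.6% AT: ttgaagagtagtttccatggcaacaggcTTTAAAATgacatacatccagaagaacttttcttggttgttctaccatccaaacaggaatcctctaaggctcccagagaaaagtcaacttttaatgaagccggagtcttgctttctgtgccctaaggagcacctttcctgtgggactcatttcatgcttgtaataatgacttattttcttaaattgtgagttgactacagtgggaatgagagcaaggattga
The A and T stretches are 9, 9 and 8 bases long. They describe the letters only. Whether HMGA1 peaks lie on these promoters was not analysed here, and the sequence under the peaks was not read.

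HMGA1 peaks were denser in the receptor clusters than in the DNA beside them. Over input DNA the 6 clusters held 220.2 peaks per Mb (95% Poisson interval 207.4 to 233.5) and their flanks 95.6 (90.0 to 101.4). The ratio was 2.3 (exact 95% interval 2.12 to 2.51). Over H3 the clusters held 154.7 peaks per Mb (144.0 to 165.9) and the flanks 60.7 (56.3 to 65.4), a ratio of 2.55 (2.3 to 2.83). All autosomes had 132.4 and 90.9 peaks per Mb, so the clusters lay above the autosomal level and their flanks below it. Autosomal and flank lengths were taken in full up to the last peak of a chromosome, with peak-free stretches included. Peaks covered 8.36% of the cluster length, 3.16% of the flanks and 4.83% of the autosomes over input, and 5.48%, 1.9% and 3.13% over H3. The flank before proximal chromosome 11 held no peak in either list and belongs to a longer peak-free stretch. Whether reads can be placed there was not checked, so the lack of peaks does not show that HMGA1 is absent. This flank is counted in the flank values and ratios unless stated otherwise. Without it the ratio over input was 2.1, and without all peak-free stretches of at least 100 kb it was 1.98.

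**Figure D1:**
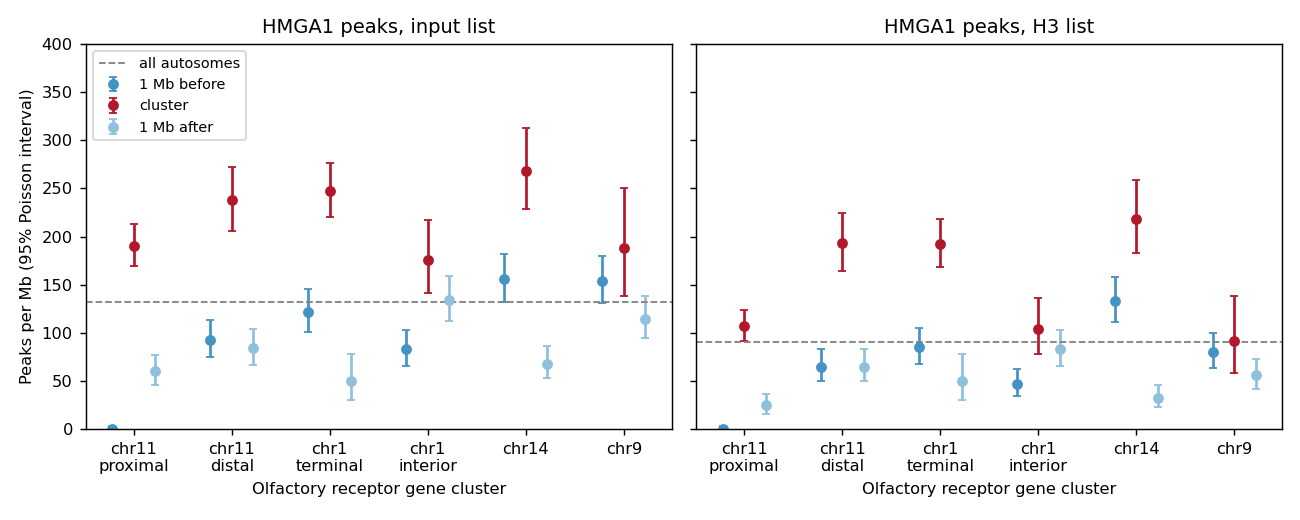
HMGA1 peaks per Mb (y axis) in each olfactory receptor gene cluster (red) and in the 1 Mb before (dark blue) and after it (light blue), for the input list and the H3 list. Points are densities, bars exact 95% Poisson intervals of the peak counts, and the dashed line is the density on all autosomes. All 6 clusters lie above both of their flanks in both lists, with intervals that overlap for chromosome 9 (1 flank over input, both over H3) and for the flank after interior chromosome 1.

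The chromosome 14 cluster was the densest. It held 161 input-list peaks, or 268.3 per Mb (228.5 to 313.1), against 156.0 before it and 68.0 after it. Over H3 it held 131 peaks, or 218.3 per Mb, against 133.0 and 33.0. The flank before it faces the centromere, where the control level was also higher (a median of 1.85 times the floor, against 1.38 in the cluster). Among peaks with at least 25 HMGA1 reads, the ratio of the cluster to that flank was 1.2 (0.84 to 1.71), within counting error, and the ratio to the flank after it was 8.64 (4.48 to 18.3). In the flank after it the median control level was at the floor, and the median summit had 17.5 HMGA1 reads, against 22 in the cluster. Whether these ratios follow the control level was not tested.

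Terminal chromosome 1 held 309 input-list peaks (247.2 per Mb, 220.4 to 276.4), with 122.0 per Mb before it. After it 19 peaks were called in the 0.382 Mb up to the last peak of the chromosome, which is 49.8 per Mb. Over H3 the values were 192.0 in the cluster, 85.0 before it and 49.8 after it. The ratio to both flanks was 2.42 (1.98 to 2.98) over input and 2.55 (2.02 to 3.24) over H3.

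Distal chromosome 11 held 202 input-list peaks (237.6 per Mb, 206.0 to 272.8), with 93.0 per Mb before it and 84.0 after it. Over H3 it held 192.9 per Mb against 65.0 on each side. The ratios to both flanks were 2.69 (2.18 to 3.3) and 2.97 (2.34 to 3.77). The control level at the peaks was alike inside and outside, at medians of 1.6 times the floor in the cluster, 1.45 before it and 1.6 after it over input.

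Proximal chromosome 11, the largest cluster, held 305 input-list peaks (190.6 per Mb, 169.8 to 213.3) and 171 H3-list peaks (106.9 per Mb). The Mb after it held 60 and 25 peaks, and the ratios to that flank were 3.18 (2.4 to 4.26) and 4.28 (2.8 to 6.79). With the peak-free Mb before it counted as flank, the ratios were 6.35 and 8.55. The cluster's own first 40.4 kb, up to 55040396, held no input-list peak and continued that stretch.

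The interior chromosome 1 and chromosome 9 clusters stood out least from their surroundings. Genes were not placed on hg19, so whether any flank holds receptor genes of its own was not checked. Interior chromosome 1 held 88 input-list peaks (176.0 per Mb, 141.2 to 216.8), against 83.0 per Mb before it and 134.0 after it. The ratio was 2.12 (1.55 to 2.9) to the flank before it and 1.31 (0.992 to 1.73) to the flank after it, where the interval includes equality. Peaks were uneven in the flank after it, where the 50 kb windows from 159300001 and 159350001 held 13 and 14 input-list peaks. Chromosome 9 held 47 input-list peaks (188.0 per Mb), against 154.0 and 115.0, and the ratio to both flanks was 1.4 (1.003 to 1.91). Over H3 it held 23 peaks, and the ratio was 1.35 (0.83 to 2.12), so a difference was not detectable there with so few peaks.

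Stretches of the same length were tiled along the autosomes, and those without any peak of the list were left out. Among the rest, the clusters ranked in the upper part without standing at the top. For chromosome 14, 11.1% of 4519 windows of 600 kb held at least as many input-list peaks, with a median of 71. For terminal chromosome 1 this share was 12.4%, for distal chromosome 11 it was 14.5%, for proximal chromosome 11 it was 22.6%, for chromosome 9 it was 26.9% and for interior chromosome 1 it was 29.0%. In the H3 list the order was similar at the top, with 8.4% for chromosome 14, 10.5% for terminal chromosome 1 and 11.4% for distal chromosome 11. The other 3 clusters were ordinary in that list, at 33.3% for proximal chromosome 11, 35.4% for interior chromosome 1 and 41.3% for chromosome 9. Median input-control levels at peaks were 1.38, 1.28 and 1.6 times the floor in chromosome 14, terminal chromosome 1 and distal chromosome 11. In the other 3 clusters they were at the floor. Whether the ranks follow the control level was not tested.

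In windows of 50 kb, the clusters had 11.01 ± 4.4 input-list peaks (SD over n = 101 windows) and the flanks 4.77 ± 3.73 (n = 227). Windows of 1 library are not replicates. The lowest cluster window held 3 peaks, and 16 of the 227 flank windows reached the cluster median of 11. The densest window was on terminal chromosome 1 from 247950001 to 248000000 with 25 input-list and 20 H3-list peaks. On proximal chromosome 11 the window from 55850001 to 55900000 held 21 and 14 peaks. The densest windows of chromosome 14 (from 20200001), distal chromosome 11 (from 123650001), interior chromosome 1 (from 158650001) and chromosome 9 (from 107300001) held 18, 17, 15 and 13 input-list peaks.

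Over input, the change in density was sharp at some edges and absent at others. At the end of terminal chromosome 1 the last 100 kb inside held 25 input-list peaks and the next 100 kb outside held 5. At the start of distal chromosome 11 the numbers were 23 inside and 12 outside, at the start of chromosome 14 they were 28 and 15, and at the start of chromosome 9 they were 25 and 13. At the end of interior chromosome 1 there were more peaks outside than inside, 16 against 11, and at the end of chromosome 9 there were 14 outside and 15 inside. Over H3 the start of chromosome 9 had only 10 inside and 8 outside, and the end of interior chromosome 1 had 10 on each side. The end of terminal chromosome 1 (17 inside, 4 outside) and the starts of distal chromosome 11 (19 and 5) and chromosome 14 (25 and 12) kept their change over H3.

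**Figure D2:**
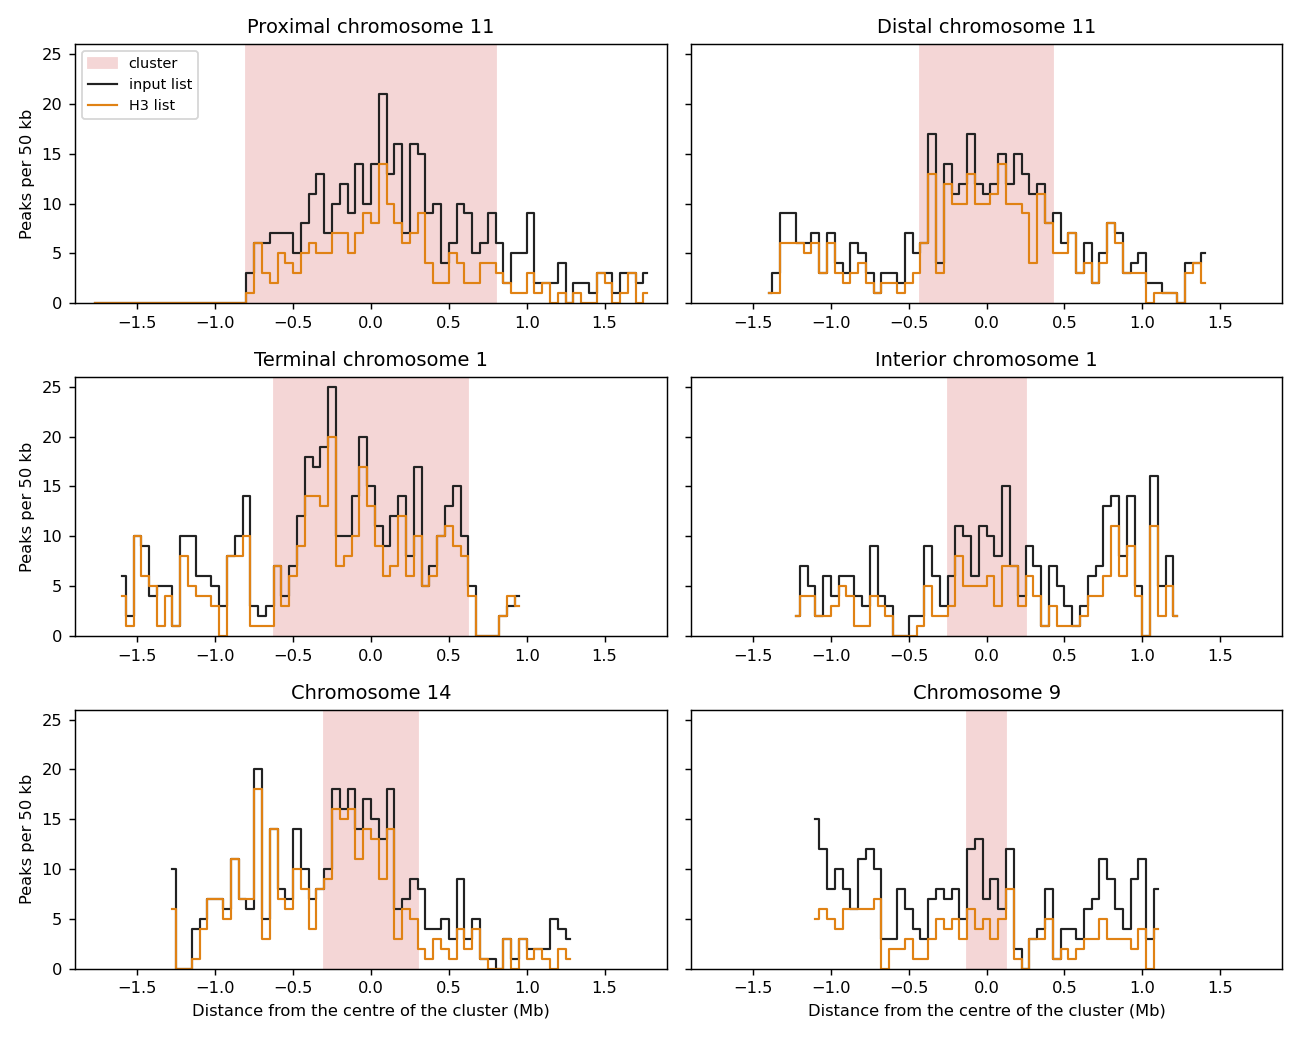
Number of HMGA1 peaks in windows of 50 kb (y axis) by distance from the centre of each cluster in Mb (x axis), over input (black) and over H3 (orange), with the cluster shaded. The highest window is on terminal chromosome 1 with 25 input-list peaks, and the Mb before proximal chromosome 11 has none.

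Over input, summits lay closer together in each cluster than in either flank that held peaks. The median distance between neighbouring input-list summits was 2208.5 bp on terminal chromosome 1, 2311 bp on distal chromosome 11, 2469 bp on chromosome 14, 3054.5 bp on proximal chromosome 11, 3939 bp on chromosome 9 and 4339 bp on interior chromosome 1. The flank medians ran from 3334 bp (before chromosome 14) to 11764 bp (after proximal chromosome 11), and the autosomal median was 3215 bp, below the values of chromosome 9 and interior chromosome 1. The closest of these comparisons was 4339 bp in the interior chromosome 1 cluster against 4394 bp after it. Over H3 the same order held except on chromosome 9, where the median was 7485 bp in the cluster and 7130 bp before it. The longest input-list peak-free stretch was 40.4 kb on proximal chromosome 11, cut at the cluster's start, and 31.9 kb on chromosome 14 (20637240 to 20669178). It was 27.2 kb on terminal chromosome 1 (248799310 to 248826477) and 24.6 kb on interior chromosome 1 (158743057 to 158767657). On distal chromosome 11 it was 24.1 kb (123734643 to 123758705) and on chromosome 9 it was 18.9 kb (107370761 to 107389613). Over H3 the longest stretches ran from 29.8 kb on terminal chromosome 1 to 73.6 kb on proximal chromosome 11. In the flanks that held peaks the input-list stretches ran from 33.0 kb to 170.6 kb.

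The peaks in the clusters were numerous but not tall. Peak height is given in HMGA1 reads at the summit, worked out for each peak from its fold and its p-value. The median input-list summit had 20 reads in the clusters, 19 in the flanks and 19 on the autosomes, and the tallest cluster summit had 70. In the whole input list 1993 peaks had more. Of the cluster peaks 335 of 1112 had at least 25 reads in the input list (28.3% of the whole list did) and 336 of 781 in the H3 list (41.3% of the whole list). Peaks of that height had a density of 66.3 per Mb in the clusters and 26.2 in the flanks over input, a ratio of 2.53 (2.16 to 2.97).

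Height differed between clusters along with the control level. MACS2 never lets the control fall below a genome-wide floor, which was 2.78 reads for input and 2.19 for H3. The control was at this floor at 36.4% of all input-list peaks and 42.9% of all H3-list peaks. On proximal chromosome 11 it was at the floor for 261 of 305 input-list peaks, and the median summit had 16 HMGA1 reads. On chromosome 9 it was at the floor for 40 of 47 and the median was also 16, and on interior chromosome 1 it was at the floor for 58 of 88 and the median was 17. On distal chromosome 11 no peak was at the floor and the median summit had 25 reads. Terminal chromosome 1, with 24 of 309 at the floor, and chromosome 14, with 54 of 161, both had 22 reads. More input DNA per region and more HMGA1 per copy cannot be told apart from reads alone, and peaks over a higher control also need more reads to be called. The flanks of distal chromosome 11 and terminal chromosome 1 had control levels close to those of the clusters (medians of 1.56 and 1.29 times the floor against 1.6 and 1.28).

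The median fold of the called peaks was close to that of their surroundings. Folds are the authors' own values per peak, and only peaks past the calling limit have one. The median fold over input was 4.53 in the clusters (quartiles 3.7 and 5.95), 4.43 in the flanks and 4.5 on the autosomes. Over H3 it was 5.25 in the clusters (quartiles 4.38 and 6.73), 5.002 in the flanks and 5.25 on the autosomes. A fold of at least 8 was reached by 82 of 1112 cluster peaks in the input list, or 7.37%, where 7.23% of the whole list reached it, and by 87 of 781 in the H3 list, or 11.1%, where 10.1% of the whole list did. These shares are near those of the whole lists, and the flanks had lower ones, with 5.79% over input and 7.53% over H3.

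The 6 clusters were unlike each other in such high folds. On chromosome 14 they made up 21 of 161 input-list peaks (13.04%), and on terminal chromosome 1 they made up 31 of 309 over input (10.03%) and 41 of 240 over H3 (17.1%). On proximal chromosome 11 they made up 6 of 305, and on interior chromosome 1 only 1 of 88, where the flanks had 18 of 217. Per Mb, such peaks over input were 5.38 times (2.57 to 11.7) as dense in the chromosome 14 cluster as in its flanks and 4.28 times (1.93 to 10.8) on terminal chromosome 1. Over H3 these ratios were 3.7 (1.86 to 7.43) and 5.66 (2.62 to 13.99). To the flank before it alone, the chromosome 14 ratio over H3 was 2.08 (1.03 to 4.3). For interior chromosome 1 the ratio over input was 0.222 (0.00533 to 1.41), an interval that includes equality. Folds are understated where the control is at its floor, which was most often so on proximal chromosome 11 and chromosome 9.

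**Figure D3:**
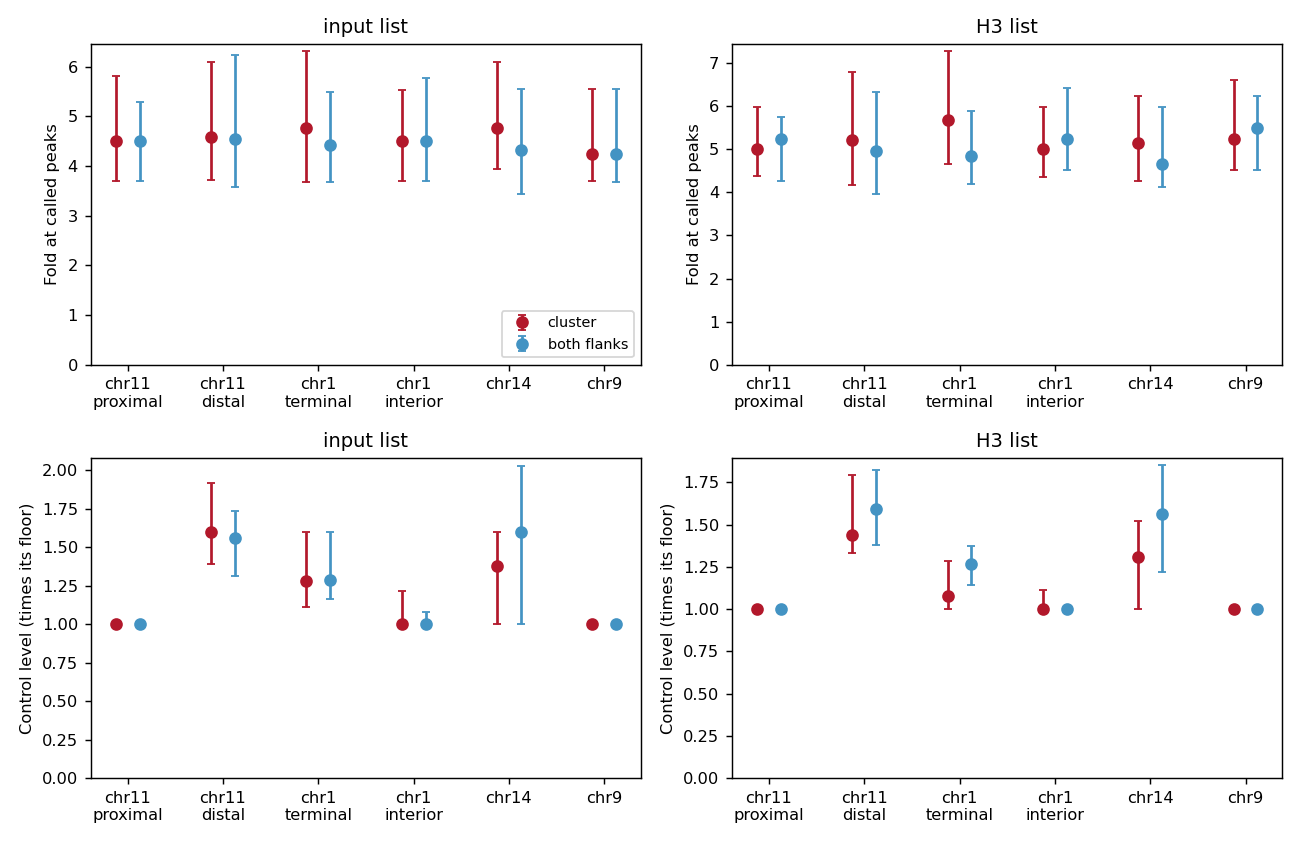
Fold of called HMGA1 peaks (top, linear axis) and control level relative to its genome-wide floor (bottom) in each cluster (red) and in both of its flanks together (blue), for the input list (left) and the H3 list (right). Points are medians and bars quartiles over peaks. Median folds over input lie between 4.23 and 4.76 in every cluster. Control levels over input are raised on distal chromosome 11, terminal chromosome 1 and chromosome 14. Over H3 the median on terminal chromosome 1 is 1.08 times the floor, below the 1.26 of its flanks.

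Of the 10 cluster peaks with the highest fold over input, 6 lay on terminal chromosome 1, 2 on chromosome 14 and 1 each on chromosome 9 and distal chromosome 11. Over H3 the 10 were spread more evenly, with 4 on terminal chromosome 1, 3 on chromosome 14, 2 on distal chromosome 11 and 1 on chromosome 9. The first over input was on chromosome 1 from 248192413 to 248192980, at 13.8-fold over input with 54 HMGA1 reads, and at 12.5-fold over H3 with its summit on the same base (248192644). In the whole input list 446 peaks had a higher fold.

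On chromosome 14 a peak from 20309154 to 20310248 was 13.7-fold over input with 68 reads and 14.2-fold over H3. The highest fold over H3 in any cluster was its neighbour from 20306631 to 20306995, at 14.4-fold with 70 reads, the most at any cluster summit. On chromosome 9 the peak from 107472186 to 107472596 reached 12.7-fold over input and 11.9-fold over H3 with 47 reads and both controls at their floors.

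Over input the leaders of the other clusters had lower folds. On distal chromosome 11 the highest over input was from 123800393 to 123800925 (11.6-fold, 55 reads) and the highest over H3 from 124050405 to 124051138 (13.8-fold, 62 reads). On interior chromosome 1 a peak from 158680205 to 158680974 led both lists, at 10.6-fold over input and 9.94-fold over H3 with 39 reads. On proximal chromosome 11 the leaders were from 55646158 to 55646493 over input (10.3-fold, 38 reads) and from 55076101 to 55076453 over H3 (8.7-fold, 34 reads). All of these had a counterpart in the other list.

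The median width of cluster peaks was 305.5 bp over input, against 281.0 bp in the flanks and 298.0 bp on the autosomes. Over H3 it was 289.0 bp, against 262.0 bp and 284.0 bp. The widest was on distal chromosome 11 from 124118842 to 124120411, with 1570 bp and 41 reads at 7.71-fold over input. In the other clusters the widest peak ranged from 963 bp on interior chromosome 1 to 1471 bp on terminal chromosome 1.

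Most cluster peaks over input were also called over H3, apart from low ones. An overlap of at least 1 bp with the H3 list was found for 754 of the 1112 peaks, or 67.8% (Wilson 95% interval 65.0 to 70.5), where 65.8% of the whole list did and 61.9% (59.0 to 64.8) of the flank peaks did. The share differed between clusters. It was 78.2% on distal chromosome 11, 77.6% on chromosome 14 and 76.1% on terminal chromosome 1, but 56.8% on interior chromosome 1, 53.8% on proximal chromosome 11 and 46.8% on chromosome 9. The first 3 were the clusters with more reads at their summits.

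At a matched number of HMGA1 reads the clusters followed the whole list. With 16 to 17 reads 49.7% (42.1 to 57.3) of the cluster peaks had a counterpart, against 50.9% of the list. With 18 to 20 reads the shares were 73.0% (65.2 to 79.7) and 79.2%, and with 25 or more they were 99.7% (98.3 to 99.9) and 98.5%. With 21 to 24 reads the cluster share of 96.9% (93.4 to 98.6) lay above the flank share of 88.1% (82.3 to 92.2), and the share of the whole list was 93.8%. Those 358 cluster peaks that were not called over H3 had 14 reads at the median summit, and the 754 that were had 23. Their median folds over input were 3.7 and 5.29.

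**Figure D4:**
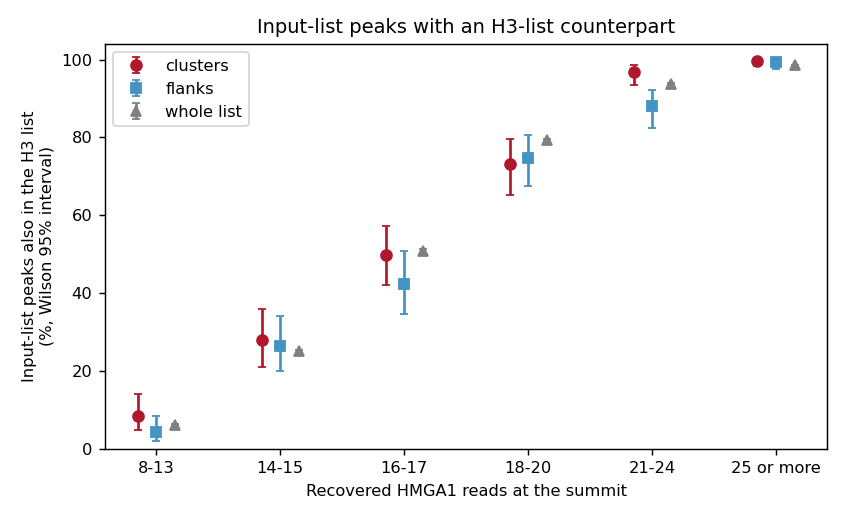
Share of input-list peaks that overlap an H3-list peak (y axis, percent) by recovered HMGA1 reads at the summit (x axis), for cluster peaks (red circles), flank peaks (blue squares) and the whole list (grey triangles), with Wilson 95% intervals. The shares rise from 8.39% at 8 to 13 reads to 99.7% at 25 or more in the clusters.

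In the other direction 773 of 781 H3-list cluster peaks, or 98.98% (97.99 to 99.5), had an input-list counterpart, where 98.3% of the whole list did. The 8 without one were low, with 15 to 22 reads. They lay on distal chromosome 11 (4), terminal chromosome 1 (2) and chromosome 14 (2).

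The 2 controls could be compared directly at 356 cluster summits, those placed at an identical base by the input and the H3 list. Relative to its own floor, input exceeded H3 by more than 1.5 times at 48 of them (13.5%) and H3 exceeded input by as much at 10 (2.81%). On the autosomes these shares were 11.8% and 4.14%, and in the flanks 10.5% and 3.74%. On terminal chromosome 1 the medians were 1.28 times the floor for input and 1.08 for H3 in the cluster, and 1.28 and 1.3 in its flanks. On distal chromosome 11 they were 1.6 and 1.37 in the cluster, and 1.57 and 1.62 in its flanks. By these medians, H3 was lower relative to input in both of these clusters than beside them. On terminal chromosome 1 the shares past 1.5 times were less clear. Input exceeded H3 at 19.3% of 109 cluster summits and 13.6% of 44 flank summits, and H3 exceeded input at 4.59% and 2.27%. On chromosome 14 both controls were lower in the cluster (1.4 and 1.3) than in its flanks (1.85 and 1.64), and in the remaining clusters all medians were at the floor. The levels move in steps of single reads, and these differences have no replicate check.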

How the data were processed

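Per the submitters' processing notes, peaks were called with MACS2 on hg19. Neither the MACS2 version nor an aligner or read filter is given in the sources used here. In the deposited lists each peak has a fold enrichment ratio of HMGA1 over the control, the −log10 of its p-value and of its q-value, and a score in whole numbers, all set by the authors. The score was not used. The HMGA1 library was identified from the names of the lists and the labels. The members, clusters and gene lists were chosen with earlier results of these data known.

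Read totals are unknown. Whole HMGA1 reads and control levels at summits were recovered from fold and p-value (fold as reads plus 1 over control plus 1, p as a Poisson tail). All 385953 and 263033 peaks could be fitted within 0.001 of the −log10 p-value, with HMGA1 reads multiplied by 0.787 in the H3 list, and the 114050 shared summits gave equal reads. The lowest number of reads called was 8 (input) and 11 (H3).

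Density was peaks per Mb, up to the last peak of a chromosome. Ratios have exact conditional intervals, densities exact Poisson intervals and shares Wilson intervals, all at 95%. Peaks were named by rule: in each cluster and list the highest fold, the highest q-value and the widest, and the 10 highest folds over all clusters. Annotation and sequence on hg19 were not used here, so the planned comparisons of gene starts, AT content and sequence under peaks were not made. Alternatives were other flanks, stricter q-values and folds, at least 25 reads, other overlap rules and leaving out each cluster; leaving out the peak-free flank was chosen after the data were seen. The tools were scipy 1.17.1, pandas 2.3.3, numpy 2.4.6, matplotlib 3.10.9 and Python 3.11.15. Coordinates are 1-based.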

Additional observations from a re-analysis of the deposited data

How the results depend on the processing

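With 1 library per antibody no replicate could be left out. No paired analysis was possible because each group has a single library and the comparisons come from no test. Every alternative kept the point value of the pooled density ratio, and of each cluster's own ratio to its flanks, above 1. For chromosome 9 the interval included equality in every setting over H3. Over input it did so in several, such as 1.18 (0.858 to 1.59) with flanks of 2 Mb. For interior chromosome 1 it did so in some settings, such as 1.3 (0.616 to 2.54) over input with at least 25 HMGA1 reads. The pooled ratio over input (2.3) was 1.98 without peak-free stretches of at least 100 kb, 2.53 with at least 25 HMGA1 reads, 2.54 without the chromosome 9 cluster and 2.1 without the peak-free 1 Mb before proximal chromosome 11. Over H3 (2.55) it was 2.26 with the flank before each cluster alone, 2.96 with the flank after it alone and 2.11 without peak-free stretches. The chromosome 14 ratio over H3 ranged from 1.64 to 6.62 and the proximal chromosome 11 ratio from 3.35 to 9.56 over the alternatives. The median fold was 5.29 over input and 5.74 over H3 among peaks whose −log10 q-value reached 5, and over H3 it was 5.17 with the control above its floor and 5.15 without terminal chromosome 1. The share of input-list cluster peaks with a counterpart (67.8%) was 63.1% with 50% of both peaks shared, 73.9% and 81.0% with both lists kept to a −log10 q-value from 5 up or a fold from 4 up, 73.1% without proximal chromosome 11 and 64.6% without terminal chromosome 1. Of H3-list cluster peaks (98.98%) the share fell to 89.9% where each peak had to share 50% of its length, 95.9% with summits within 200 bp, and 96.1% and 87.9% with the same q-value and fold limits. The other 46 pooled values stayed within the interval of the value reported. For all of these, the cause was not tested. Sites under 8 (input) or 11 (H3) HMGA1 reads were not detectable at this depth.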
